A study of Mus musculus with 8 samples.

Results

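Odorant-binding proteins, lipocalins and major urinary proteins (Mups) are described here in the exorbital lacrimal gland (LG) of mice fed ad libitum (AL) or kept on calorie restriction (CR). The set was given as a list of 10 gene symbols, Obp1a, Obp1b, Gm5938, Obp2a, Lcn3, Lcn4, Lcn11, Lcn13, Mup4 and Mup5. Of these, 9 had a row of their own among the 24552 genes of the count table, and Lcn13, which the reference gene table gives as another name of Obp2a, had none. The genes were chosen by their values in the comparison of CR with AL, so the levels and fold changes of the members are given as a description, without a test.

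LG RNA of 8 female C57BL/6J mice, 4 per diet, was sequenced at the 3′ ends of transcripts. Both groups were 10 to 11 months old when the glands were taken, and the labels name no transgene or mutation. CR mice received 40% fewer calories for 4 months, from an age of 6 to 7 months, as 1 meal a day before the dark phase, whereas AL mice had free access to food. In 1 of the study's 2 cohorts of mice the restricted chow held more vitamins and micronutrients than the AL chow. Only females were studied, and the labels do not tie a library to a cohort or a cage, so the error given is the spread between these samples.

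Lipocalins are small secreted proteins whose barrel-shaped fold encloses a pocket for fatty or odorous molecules. The odorant-binding proteins are lipocalins first known from nasal mucus and are also made in glands of the face, and Mups are lipocalins made by the mouse liver that carry pheromones in urine. A few Mup genes are also transcribed in lacrimal, salivary and nasal glands. In tears, lipocalins bind lipids and other hydrophobic molecules.

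The members lie on 3 chromosomes of the GRCm38 (mm10) genome. Obp1a (chrX:78085505-78091374, minus strand), Gm5938 (chrX:78125467-78130403, plus strand) and Obp1b (chrX:78186777-78192292, plus strand) are neighbours, and the next gene is Gm14743 (chrX:78240462-78245921, minus strand), which was not on the list. These 4 genes span 160.4 kb, with no other annotated gene between them. Obp2a (chr2:25700043-25703326), Lcn3 (chr2:25765569-25768099) and Lcn11 (chr2:25777017-25780279) lie on the plus strand of chromosome 2 and Lcn4 (chr2:26667674-26671282) on its minus strand. Mup4 (chr4:59956804-59960710) and Mup5 (chr4:61831319-61835233) lie 1870.6 kb apart on the minus strand of chromosome 4, in the block that holds the other Mup genes.

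The genes on the X chromosome form 2 pairs of near copies. The coding sequences of Obp1a and Gm5938, of 489 bases each, were identical at 89.4% of positions, and those of Obp1b and Gm14743, of 513 bases each, at 99.8%. Between the pairs the identity was 70.2 to 70.6%. The first 150 coding bases of Obp1a and Gm5938 are shown to illustrate the near copies, with capitals at the 3 bases that differ there (52 differ over the whole coding sequence). How far reads separate the pair is described below for the 3′ ends.
Obp1a: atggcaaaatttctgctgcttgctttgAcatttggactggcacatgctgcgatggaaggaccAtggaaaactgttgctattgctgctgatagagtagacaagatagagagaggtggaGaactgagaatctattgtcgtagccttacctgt
Gm5938: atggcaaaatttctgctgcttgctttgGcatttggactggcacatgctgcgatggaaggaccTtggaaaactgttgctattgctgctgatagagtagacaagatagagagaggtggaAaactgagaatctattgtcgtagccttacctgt
Coding bases 407 to 513 of Obp1b and Gm14743 are shown because they hold the single base, in capitals, at which the coding sequences differed, G482A with positions counted from the A of the start codon.
Obp1b: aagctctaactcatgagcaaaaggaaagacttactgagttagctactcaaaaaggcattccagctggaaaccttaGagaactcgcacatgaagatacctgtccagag
Gm14743: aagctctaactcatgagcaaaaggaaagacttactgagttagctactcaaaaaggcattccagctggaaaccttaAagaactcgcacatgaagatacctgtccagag

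How far reads can separate these copies bears on every value below. In the last 600 bases of the annotated transcripts, none of the 75-base windows of Obp1a, Gm5938 or Lcn11 occurred in another gene. In Obp1b 60.5% of the windows also occurred in Gm14743, and in Gm14743 60.1% occurred in Obp1b. Counts of Obp1b and Gm14743 are therefore uncertain with respect to each other, and the sources used here do not say how reads that fit both were counted. Mup4 shared 0.57% of its windows, with Mup5, and Mup5 shared 7.41%, with other Mup genes. No exon of a member overlapped an exon of another gene.

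The coding sequences of Mup4 and Mup5, of 534 and 540 bases, were identical at 92% of aligned positions. Their first 150 bases are shown because these near copies gave opposite pictures in AL glands, with capitals at bases that differ or are missing in the other gene.
Mup4: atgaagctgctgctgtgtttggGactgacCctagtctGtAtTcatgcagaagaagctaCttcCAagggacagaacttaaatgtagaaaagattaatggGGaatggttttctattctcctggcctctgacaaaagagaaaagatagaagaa
Mup5: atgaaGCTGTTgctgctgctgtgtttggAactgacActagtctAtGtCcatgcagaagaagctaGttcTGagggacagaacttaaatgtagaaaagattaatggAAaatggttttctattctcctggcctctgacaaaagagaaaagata

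The 300-base promoter windows of RefSeq (GRCm38.p6) hold 250 bases before and 50 after each gene's start, and 8 of the 10 members matched by symbol. Mup5 had no window, so its promoter was not searched, and Lcn13 had none under that name. The windows of the X chromosome genes mirrored the pairing of the coding sequences, with 93% identity between Obp1a and Gm5938, 94.2% between Obp1b and Gm14743 and 50.9 to 54.7% between the pairs. Positions -150 to -21, counted from the start, are shown for Obp1a (chrX:78091395-78091524, minus strand) and Gm5938 (chrX:78125317-78125446, plus strand), and positions -180 to -51 for Obp1b (chrX:78186628-78186757, plus strand). Capitals mark the motifs TATAAA and AGAACA.
Obp1a: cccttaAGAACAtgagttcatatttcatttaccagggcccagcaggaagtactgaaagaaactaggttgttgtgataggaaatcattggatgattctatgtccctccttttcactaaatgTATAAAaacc
Gm5938: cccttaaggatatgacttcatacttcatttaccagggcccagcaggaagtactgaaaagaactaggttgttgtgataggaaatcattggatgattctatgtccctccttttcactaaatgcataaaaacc
Obp1b: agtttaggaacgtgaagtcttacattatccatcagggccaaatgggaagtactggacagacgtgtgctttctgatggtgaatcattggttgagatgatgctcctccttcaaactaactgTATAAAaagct

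Each motif named here was searched on both strands, and no match in a member overlapped another. TATAAA occurred in the windows of Obp1a, Obp1b, Gm14743, Obp2a, Lcn3 and Mup4, and in 13.6% of all 32851 promoter windows. AGAACA, a half-site of steroid receptors, occurred in those of Obp1a and Lcn11, and in 19% of all windows. TTCNNNGAA, the STAT form, occurred in no member that had a window and in 8.3% of all windows. CACGTG, the E-box of clock factors, occurred in no member that had a window and in 7.15% of all windows. Mup5 could not be searched for either. These matches are letters in a window only.

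Levels are given as CPM, the counts of a gene in 1000000 counts of a library after its total was scaled by its relative log expression (RLE) factor, and the values of a diet are listed from replicate 1 to replicate 4. Since each transcript gives reads at its 3′ end only, counts were not divided by length, and levels of different genes are compared on this scale. The libraries held 12051881 to 22156511 counts, and a floor of 3 counts corresponds to 0.152 to 0.231 CPM, which covers counting error only. Of the 9 members with a row, 6 passed the filter on low counts, namely Obp1a, Obp1b, Gm5938, Lcn11, Mup4 and Mup5. Obp2a, Lcn3 and Lcn4 had at most 3, 4 and 2 counts in any library.

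The glands were checked against cell type markers, because 1 library stood apart. Of 10 lacrimal markers 9 were in the table and had counts, and their summed level was 40200 to 69710 CPM in AL and 74820 to 94870 CPM in CR libraries, or 20850 to 57930 and 12150 to 38310 CPM without Car6. All 8 markers of the parotid gland, the salivary gland that lies close to the exorbital LG, were also counted. Their summed level was 2018 to 25400 CPM in AL, 187500 to 239300 CPM in CR replicates 1 to 3 and 20050 CPM in CR replicate 4. In AL replicate 4 it was the lowest of all libraries. EdgeR called 3 of the 8 higher in CR, the proline-rich protein genes Prb1, Prh1 and Prp2 (adjusted p = 0.0377, 0.0207 and 0.00701), and 0 lower, and all 8 had a higher mean in CR. Of the 8 submandibular and sublingual markers, Smgc was at 0, Dcpp3 was called higher in CR (adjusted p = 0.0423) and the sum was 18.3 to 497.5 CPM in AL and 271.8 to 5744 CPM in CR. The 6 liver markers summed to 0.30 to 8.77 CPM in AL and 6.21 to 163.4 CPM in CR, nearly all of it from transthyretin (Ttr), which was called higher in CR by edgeR (log2 fold change 4.61, adjusted p = 0.0317). Serpina1a and Apoc3 were at 0 and albumin (Alb) was at most 0.62 CPM. Among 5 nasal markers Bpifa1, Bpifb9b and Cyp2g1 were at 0, and the sum was at most 0.74 CPM. The 4 white adipose and 4 skeletal muscle markers summed to at most 24.25 and 51.04 CPM in any library. The part of these transcripts in the values below was not tested, and in bulk RNA fewer cells of a type and less RNA per cell cannot be told apart.

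Odorant-binding protein genes were the most counted members and had lower means in CR glands. Obp1a was the most counted gene of all in each AL library, at 159200, 147700, 160400 and 163000 CPM in the AL libraries. In the CR libraries it was at 89890, 66830, 58970 and 152600 CPM. CR replicate 4 lay within the AL range and the other CR libraries below it, so that the groups overlapped. The means were 157600 ± 6759 CPM in AL and 92070 ± 42440 CPM in CR (SD, n = 4 each), and the log2 fold change, CR minus AL, was -0.78 (standard error 0.59). Obp1a was of rank 3 among all genes in CR replicates 2 and 3 and was again the most counted gene in CR replicate 4.

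Obp1b had a larger difference than Obp1a. Its levels were 74860, 72220, 40460 and 75370 CPM in the AL libraries and 9973, 14010, 10010 and 38720 CPM in the CR libraries. The groups did not overlap, but the lowest AL library, replicate 3, and the highest CR library, replicate 4, were close to each other. The means were 65730 ± 16900 CPM in AL and 18180 ± 13830 CPM in CR (SD, n = 4 each). The log2 fold change was -1.85 (standard error 0.59), or 3.62-fold lower in CR.

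Gm5938, the near copy of Obp1a, varied as little as Obp1a between AL glands. It was at 45180, 41450, 43020 and 45420 CPM in the AL libraries, and at 14790, 15030, 9838 and 34810 CPM in the CR libraries. Every CR library lay below every AL library. The means were 43770 ± 1884 CPM in AL and 18620 ± 11060 CPM in CR (SD, n = 4 each), with a log2 fold change of -1.23 (standard error 0.50), or 2.35-fold lower in CR. Between the AL libraries the highest level of Gm5938 was 1.10 times the lowest, and between the CR libraries 3.54 times.

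**Figure D1:**
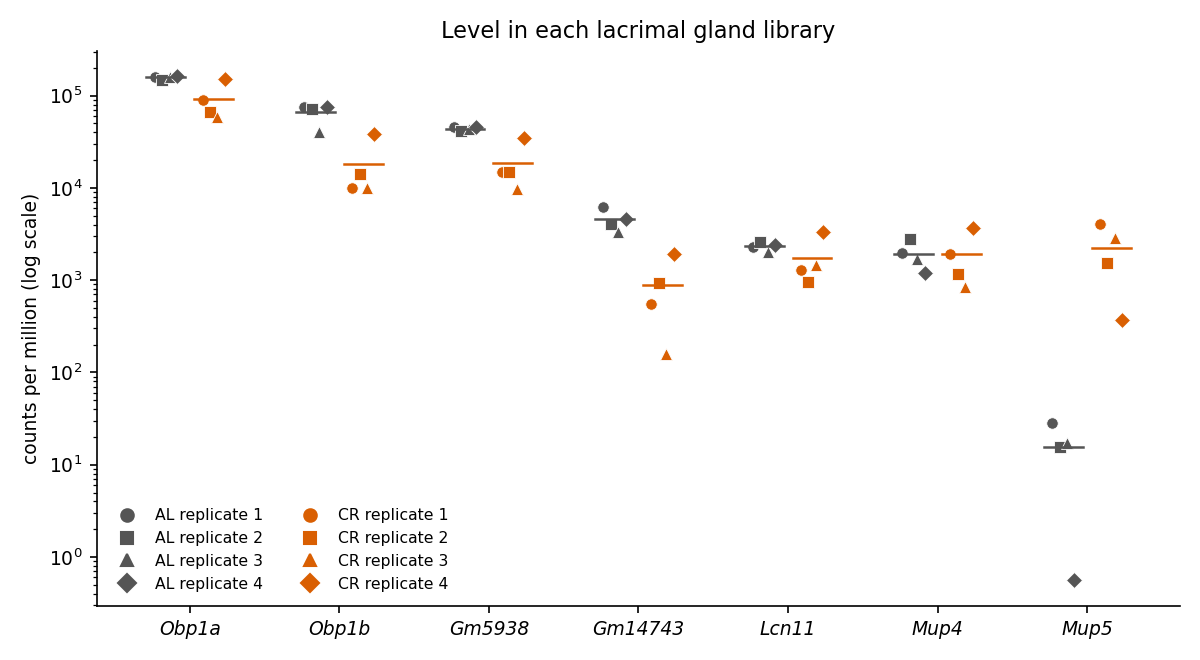
Levels of the 6 members that passed the filter, and of Gm14743, in CPM on a log axis. Each point is 1 library, with the diet by colour, the replicate by shape and the group mean as a line. CR replicate 4 is the highest CR library for every gene except Mup5, for which it is the lowest.

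Gm14743, the fourth gene of the block and no member of the list, was tested in the fit across all genes. It was at 6194, 4009, 3358 and 4608 CPM in the AL libraries and at 551.9, 941.5, 159.6 and 1921 CPM in the CR libraries. All CR libraries lay below all AL libraries. The log2 fold change was -2.35 (standard error 0.59), and the quasi-likelihood test of edgeR, adjusted by Benjamini-Hochberg over all genes tested, gave an adjusted p of 0.0639, which misses the threshold of 0.05. Leaving out CR replicate 4 gave a log2 fold change of -3.04, with an adjusted p of 0.0051, and DESeq2 on all libraries gave 0.00867. Its level cannot be separated from that of Obp1b where their reads are shared.

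Together, the 3 odorant-binding protein genes took 24.95, 26.55, 27.8 and 25.28% of all counts in the AL libraries. In the CR libraries they took 11.26, 9.631, 9.288 and 21.11%. AL libraries thus gave about the same share, and CR replicate 4 lay between the other CR libraries and the AL group. The means were 26.14 ± 1.30% in AL and 12.82 ± 5.59% in CR (SD, n = 4 each). With Gm14743 added, the means were 26.58 ± 1.25% and 12.91 ± 5.65%. All members together took 26.56 ± 1.35% and 13.42 ± 5.67%. The 8 parotid markers took 21.16, 24.04, 22.09 and 1.87% of the counts in the CR libraries. When their counts were left out of the totals, the share of all members was 26.91% in AL and 15.82% in CR. Only these 8 genes were left out, so any other parotid transcripts stayed in the totals.

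**Figure D2:**
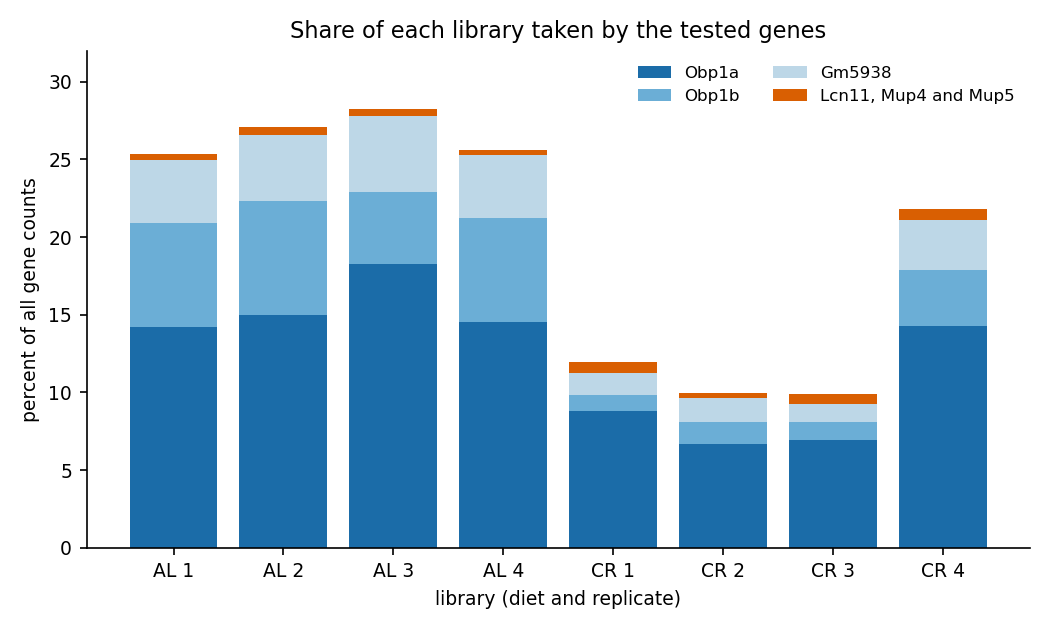
Percent of all gene counts taken by the tested members in each library, stacked by gene, on an axis that starts at 0. The bars reach 25.34 to 28.23% in AL libraries, 9.895 to 11.97% in CR replicates 1 to 3 and 21.8% in CR replicate 4.

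How the odorant-binding protein genes compared with the lacrimal markers depended on Car6. Carbonic anhydrase 6 (Car6), a secreted enzyme that parotid glands also make, was at 11780 to 28480 CPM in AL and 36510 to 82730 CPM in CR, whereas the secretoglobin Scgb2b24, most of the remaining sum, was at 19440 to 56480 CPM in AL and 10540 to 36890 CPM in CR. Obp1a, Obp1b and Gm5938 together amounted to 407.2 to 606.8% of all summed lacrimal markers in AL libraries and to 105 to 302.3% in CR libraries, without overlap. Without Car6, a choice made after seeing the data, the other 8 markers summed to 39010, 33660, 20850 and 57930 CPM in the AL libraries and to 12150, 13580, 16070 and 38310 CPM in the CR libraries. CR replicates 1 to 3 lay below all AL libraries in this sum, which Scgb2b24 dominates. Of the 9 single lacrimal markers, 5 (Sox10, Runx1, Bhlha15, Aqp5 and Car6) had a higher mean in CR. Sox10 was at 85.64, 68.37, 88.01 and 26.29 CPM in the CR libraries. Pax6, among the lower ones, was at 50.01 to 89.05 CPM in AL and at 25.08, 34.25, 33.77 and 75.83 CPM in CR. Its log2 fold change was -0.68, and it was not called. EdgeR called Sox10, a transcription factor of secretory acini, higher in CR (log2 fold change 2.13, adjusted p = 0.00746) and Pigr, which carries antibodies across the epithelium, lower (log2 fold change -0.95, adjusted p = 0.038). Against the sum without Car6 the 3 odorant-binding protein genes amounted to 489.9 to 1170% in AL and 490.6 to 943.7% in CR libraries, and the groups overlapped.

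Ratios of counts within a library do not depend on any scaling factor. Obp1b amounted to 47.03, 48.88, 25.22 and 46.23% of Obp1a in the AL libraries and to 11.09, 20.97, 16.98 and 25.37% in the CR libraries. AL replicate 3 lay beside CR replicate 4, so the groups overlapped. Gm5938 amounted to 28.38, 28.06, 26.81 and 27.86% of its near copy Obp1a in the AL libraries, a ratio that hardly varied, and to 16.46, 22.48, 16.68 and 22.81% in the CR libraries. Here the groups did not overlap, CR replicate 4 included. The log2 ratio of Gm5938 to Obp1a was -1.85 ± 0.04 in AL and -2.37 ± 0.26 in CR (SD, n = 4 each).

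Between Gm5938 and Obp1b the order of the groups was the other way round. Gm5938 amounted to 57.4 to 60.35% of Obp1b in AL replicates 1, 2 and 4 but to 106.3% in AL replicate 3, and to 89.88 to 148.3% in the CR libraries. The mean log2 ratio was higher in CR by 0.67, with overlapping groups. Among the 3 members of the X chromosome block, the mean difference was largest for Obp1b and smallest for Obp1a. The groups overlapped, however, in the ratios of Obp1b to Obp1a and of Gm5938 to Obp1b. Gm14743, no member, had a larger log2 fold change than Obp1b, -2.35 against -1.85, and the counts of these 2 are uncertain with respect to each other. Gm14743 amounted to 5.551 to 8.3% of Obp1b in AL and to 1.594 to 6.72% in CR libraries.

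**Figure D3:**
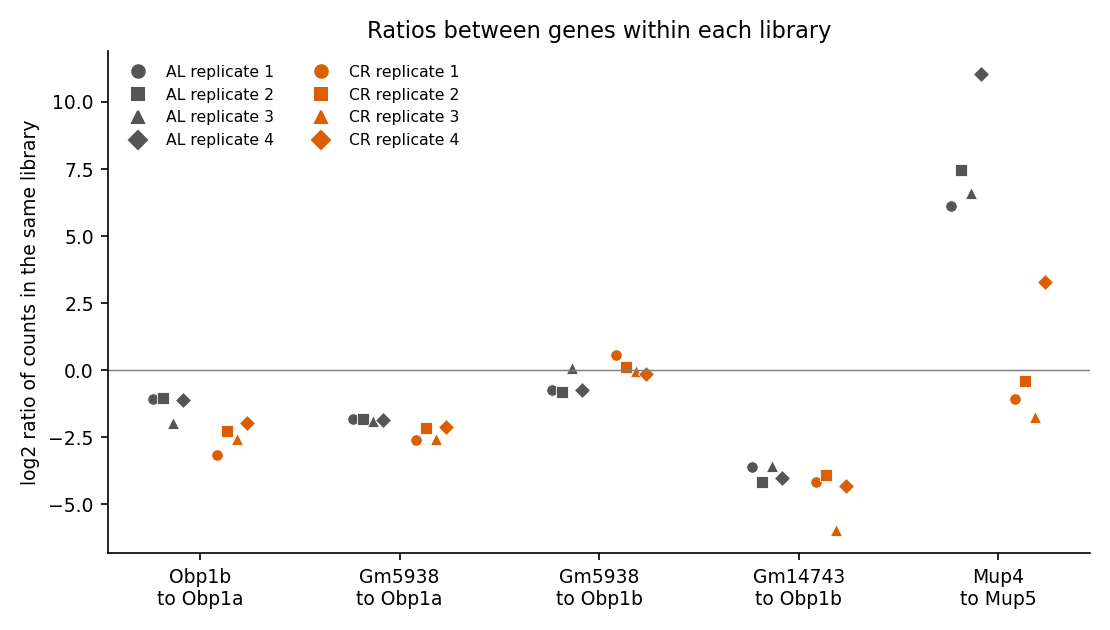
Log2 ratio of counts of 2 genes in the same library, with 1 point per library, the diet by colour and the replicate by shape, and a line at equal counts. AL points of Gm5938 to Obp1a lie on top of each other at -1.82 to -1.90, and those of Mup4 to Mup5 lie above all CR points.

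Lcn11 was the lipocalin of the chromosome 2 group that LGs expressed. It was at 2310, 2596, 2017 and 2425 CPM in the AL libraries and at 1287, 949.5, 1444 and 3327 CPM in the CR libraries. CR replicates 1 to 3 lay below all AL libraries and CR replicate 4 above them. The means were 2337 ± 243.9 CPM in AL and 1752 ± 1070 CPM in CR (SD, n = 4 each), and the log2 fold change was -0.42 (standard error 0.38). Without CR replicate 4 it was -0.93.

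Its neighbours on chromosome 2 gave next to no counts. Lcn3, a lipocalin known from vomeronasal and nasal glands, had 4, 2, 2 and 0 counts in the AL libraries and 0, 0, 2 and 2 in the CR libraries. Lcn4, of the same sites, had 2 counts in AL replicate 2 and 0 elsewhere. Obp2a had 3 counts in CR replicate 4 and 0 elsewhere. Lcn3 in AL replicate 1 and Obp2a in CR replicate 4 alone reached the floor of 3 counts, and no fold is given. The Lcn3 gene ends less than 10 kb before Lcn11 begins, while its total over 8 libraries was 12 counts against 265528 for Lcn11. Coding sequences of Lcn11, Lcn3, Lcn4 and Obp2a were identical at 46.9 to 54.3% of aligned positions, and none of them shared a 75-base window with another gene.

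Mup4 had the same mean level on both diets, with a wide spread. It was at 1956, 2767, 1678 and 1189 CPM in the AL libraries and at 1906, 1160, 849 and 3671 CPM in the CR libraries. The groups overlapped, and the highest and the lowest of all 8 libraries were both CR libraries. The means were 1897 ± 660.7 CPM in AL and 1896 ± 1263 CPM in CR (SD, n = 4 each), and the log2 fold change was -0.00 (standard error 0.44). The sign turned with the libraries used, from -0.54 without CR replicate 4 to 0.25 without CR replicate 3.

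In the fit with all 8 libraries, Mup5 had the only positive log2 fold change among the 6 tested members. It had 369, 253, 236 and 11 counts in the AL libraries, and 57398, 26039, 46201 and 6740 counts in the CR libraries. In CPM these were 28.4, 15.5, 17.18 and 0.56 in AL and 4056, 1540, 2858 and 373.9 in CR. The lowest CR library was more than 10 times the highest AL library. The log2 fold change was 7.17 (standard error 1.06), or 144-fold higher in CR, with means of 15.41 ± 11.44 CPM in AL and 2207 ± 1596 CPM in CR (SD, n = 4 each). Mup5 was the gene of rank 1710 to 11243 in AL libraries, ordered by counts, and of rank 18 to 86 in CR libraries.

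Within a library, Mup4 exceeded Mup5 in AL and not in most CR glands. In CR replicates 1 to 3 Mup4 amounted to 47, 75.29 and 29.71% of Mup5, so Mup5 was the more abundant of these near copies, whereas in CR replicate 4 it amounted to 981.8%. In the AL libraries the log2 ratio of Mup4 to Mup5 was 6.11, 7.48, 6.61 and 11.06. Mup4 and Mup5 together took 0.11 to 0.28% of the counts in AL and 0.27 to 0.59% in CR libraries.

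Mup5 was low where markers of the parotid gland were low, and their part in its level was not tested. AL replicate 4 had both the lowest Mup5 and the lowest summed parotid markers, and CR replicate 4 the lowest of the CR group in both. Mup5 amounted to 0.11, 0.10, 0.16 and 0.03% of the summed parotid markers in the AL libraries and to 1.88, 0.64, 1.52 and 1.87% in the CR libraries. CR replicate 4 and AL replicate 1 had similar parotid sums, 20050 and 25400 CPM, and Mup5 at 373.9 and 28.4 CPM. The parotid markers Bpifa2 and Amy1 made up most of both sums. They were at 13680 and 3273 CPM in CR replicate 4 and at 17720 and 5624 CPM in AL replicate 1. The other markers of the list were higher in CR replicate 4. Prb1, Prh1 and Prp2 were at 418.4, 360.5 and 61.96 CPM there, and at 90.36, 9.236 and 1.231 CPM in AL replicate 1. In CR replicates 1 to 3 the order of Mup5 was not that of the parotid sum, which was highest in replicate 2. Against the summed submandibular and sublingual markers, Mup5 amounted to 3.05 to 14.66% in AL and 26.81 to 137.6% in CR libraries.

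**Figure D4:**
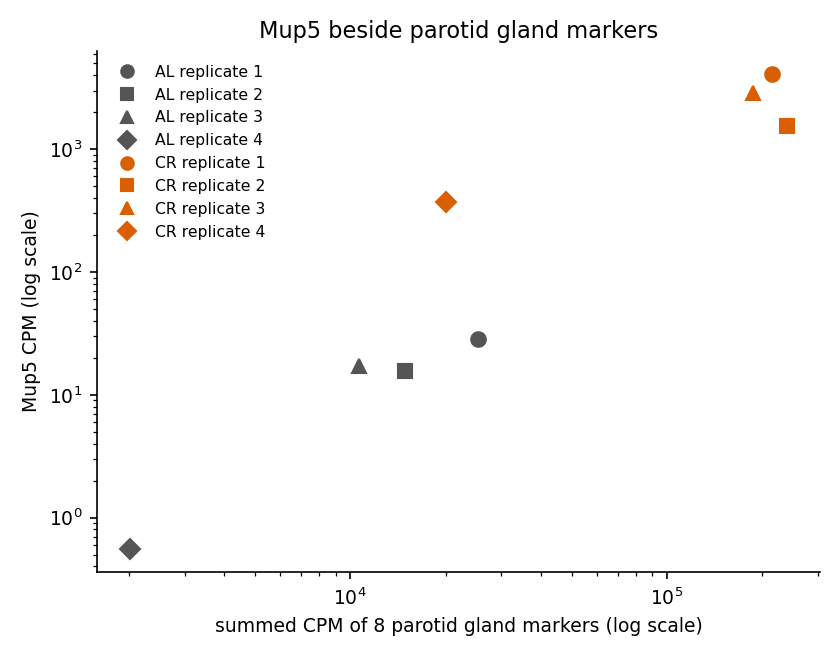
Mup5 in CPM against the summed CPM of 8 parotid gland markers, both on log axes, with 1 point per library, the diet by colour and the replicate by shape. At parotid sums of 20050 and 25400 CPM, CR replicate 4 has Mup5 at 373.9 CPM and AL replicate 1 at 28.4 CPM. Both sums are mostly Bpifa2 and Amy1, and the other markers of the list are higher in CR replicate 4.

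CR replicate 4 decided much of the size of the differences. When it was left out, log2 fold changes were -1.13 for Obp1a, -2.54 for Obp1b, -1.73 for Gm5938 and 7.52 for Mup5. The mean log2 CPM of CR replicates 1 to 3 differed from the AL mean by -1.15 for Obp1a and -2.51 for Obp1b, and that of CR replicate 4 by -0.045 and -0.72. For Lcn11 and Mup4, CR replicate 4 lay above the AL mean by 0.52 and 1.02 on the log2 scale. For Mup5, CR replicates 1 to 3 lay above the AL mean by 8.32 and CR replicate 4 by 5.52.

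Of the 6 members tested, 1, Mup5, passed an adjusted p of 0.05 and a fold of 1.5 upwards in edgeR's test, which called 1.2% of 11211 genes higher. Downwards 0 passed, against 0.785% of all genes, and at an unadjusted p under 0.05 the count was 2, Obp1b and Gm5938, against 8.1% of all genes in this direction. DESeq2 called the same 2 lower, against 2.79% of genes, and Mup5 higher, against 3.46%. Groups did not overlap in Obp1b and Gm5938, lower in CR as in 5.2% of all genes, and in Mup5, higher in CR as in 4.58%. Since this comparison chose the members, nothing is read from these counts. The median log2 fold change of the 6 members was -0.60, and that of all genes tested 0.01.

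**Figure D5:**
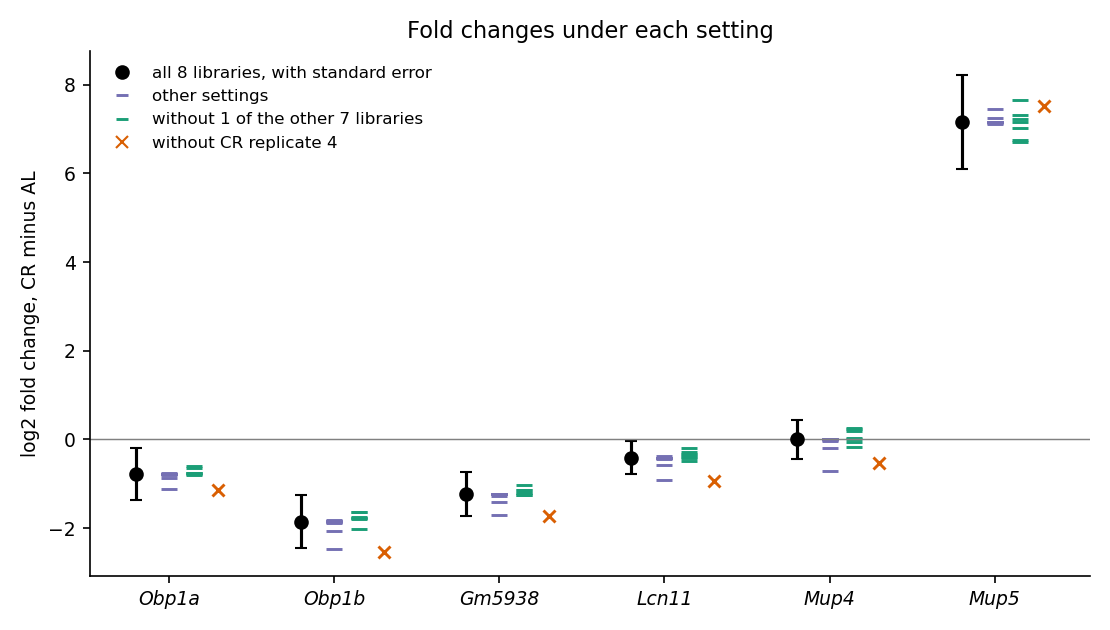
Log2 fold change, CR minus AL, of the 6 tested members. The black points with standard errors use all 8 libraries, the purple dashes other scalings, filters, tools and library choices, the green dashes the fits without 1 of the other 7 libraries and the crosses the fit without CR replicate 4, at -2.54 for Obp1b and 7.52 for Mup5.

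Among 38 other lipocalin and Mup genes in the table, 11 had counts and 3 passed the filter, namely Gm14743, Apod and Lcn2. EdgeR's test called 0 of the 3, 1 (Gm14743) had an unadjusted p under 0.05, as had 16.7% of all genes tested, and DESeq2 called that gene. Their median log2 fold change was 0.40, against 0.01 over all genes. Apod, which binds progesterone and lipids, was at 31.13 ± 10.83 CPM in AL and 41.16 ± 8.90 CPM in CR (SD, n = 4 each). Lcn2, which withholds iron from bacteria by binding siderophores, was at 2.91 ± 0.76 and 4.15 ± 2.38 CPM (SD, n = 4 each). Of 19 other Mup genes 17 were at 0 counts, and Mup3 and Mup6 were at most 0.94 and 1.17 CPM. These 17 shared 11.8 to 100% of their 75-base windows with other genes. Mup21 and Mup20 shared 11.8 and 29.1%, and the others from 49.2% upwards, where a count of 0 says less of their transcripts. The retinol carrier Rbp4, the lipocalin C8g of the complement system and Orm1, an acute-phase protein, were at most 1.73, 0.92 and 1.24 CPM. Orm3 and Ptgds did not exceed 0.35 CPM.

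Receptors that take up lipocalins were also counted. The endocytic receptor megalin (Lrp2) was at 13.74 ± 4.90 CPM in AL and 9.22 ± 5.73 CPM in CR, and the Lcn2 receptor Slc22a17 at 18.72 ± 5.79 and 22.96 ± 9.27 CPM (SD, n = 4 each). Lmbr1l, a receptor of tear lipocalin, was at 1.80 ± 0.70 and 3.08 ± 0.72 CPM, and the retinol transporter Stra6 was under the filter. EdgeR called 0 of the 3 tested, 0 had an unadjusted p under 0.05, and DESeq2 called 0. Of 17 alternatives only the fit without CR replicate 4 called megalin, at a log2 fold change of -1.12 and an adjusted p of 0.037, and with both replicate 4 libraries left out the adjusted p was 0.0777.

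Genes known to control Mup transcription in liver were considered because 2 members are Mup genes. Of 9 listed, 8 were tested, and edgeR called 0, with 1 gene at an unadjusted p under 0.05, again beside 16.7% of all genes. That gene, the growth hormone receptor Ghr, was at 7.00 ± 0.56 CPM in AL and 12.76 ± 4.22 CPM in CR (SD, n = 4 each), with a log2 fold change of 0.86 (standard error 0.26) and an adjusted p of 0.112. DESeq2 called it at an adjusted p of 0.047. CR replicate 4 had Ghr at 6.99 CPM, within the AL range, and without it the adjusted p was 0.00962. Log2 fold changes lay between -0.44 and 0.22 for Stat5a and Stat5b, which act below the growth hormone receptor, the glucocorticoid receptor Nr3c1, the prolactin receptor Prlr, the repressor Zhx2 and Igf1. The estrogen receptor Esr1 was under the filter. The median over the 8 genes was -0.03.

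Genes with the most similar profile were found by the root mean square (RMS) difference of log2 CPM over the 8 libraries, after each gene was centred on its mean. For Obp1a they were Insig2, a regulator of sterol synthesis (RMS difference 0.14), the channel gene Tmem38a (0.17) and the secretoglobin Scgb2b1 (0.17). Scgb2b1 was also nearest to Gm5938 (0.25), followed by the protease Adam9 (0.26) and Phlda2 (0.27). Scgb2b1 was at 968.7 to 1369 CPM in AL, 376.7 to 600.5 CPM in CR replicates 1 to 3 and 974.4 CPM in CR replicate 4. The nearest to Obp1b were 4930452B06Rik (0.21), the histone gene Hist1h2be (0.34) and the co-chaperone Dnajc12 (0.37), all under 10 CPM. In 4930452B06Rik, too, AL replicate 3 was the lowest AL library, at 3.71 CPM against 7.54 to 9.58 CPM in the others.

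Lcn11 was nearest to Hyou1, a chaperone of the endoplasmic reticulum (0.18), 9530002B09Rik (0.18) and Cmip (0.20). Mup4 was nearest to Tmco3 (0.28), Nubp2 (0.31) and Fbxo33 (0.33), all under 16 CPM. No gene came as close to Mup5. Its nearest were Esp8, an exocrine gland-secreted peptide (0.98), Dcpp3, a protein of demilune cells and the parotid gland (1.44), and Gm4736 (1.59). Esp8 had at most 0.74 CPM in AL, 26.62 to 29.47 CPM in CR replicates 1 to 3 and 2.94 CPM in CR replicate 4. Between members, the profiles of Obp1a and Gm5938 differed by 0.31, those of Obp1a and Lcn11 by 0.32, those of Obp1a and Obp1b by 0.73 and those of Mup4 and Mup5 by 4.35.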

How the data were processed

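The authors sequenced 3′ ends of LG RNA (QuantSeq FWD, 75-base single reads), used cutadapt for trimming, STAR for alignment to mm10 and HTSeq for counting, and deposited raw counts per gene. They also deposited log2 values, made with DESeq2's RLE factors, which differed from values recomputed here by at most 0.000124 and were not used further. Versions of these tools are not given in the sources used here.

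Dropping 5 repeated symbols left 24552 genes, and filterByExpr kept 11211 of them. The diets were compared by the quasi-likelihood test of edgeR 4.0.16 (R 4.3.3), scaled with RLE factors and adjusted by Benjamini-Hochberg over all genes tested. Calls required an adjusted p below 0.05 and at least a 1.5-fold difference. Standard errors were obtained as log2 fold change over the square root of F. Log2 CPM used a prior count of 0.5. Members and lists were chosen with earlier results of these data known. Named genes are the members, called genes of the lists, up to 10 other family genes with the highest mean CPM, the 3 genes nearest in profile to each tested member and markers, and the other hormone and receptor genes, Mup20 and Mup21 were named after their values were seen. Alternatives were TMM, upper-quartile and total-count scaling, DESeq2 1.42.0, 2 other filters, a replicate block, scaling without the 50 most counted genes and each library left out. Of 104 genes simulated at a log2 change of 2 in size among 10992, 79 were called, with 8 unchanged genes called. Positions come from GENCODE on GRCm38. Protein sequences were not used here. The values of 1 gene of the hormone list are not reported here.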

Additional observations from a re-analysis of the deposited data

Results flagged for a closer look

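In 30 groups of 4 libraries (levels of 6 members and Gm14743, 3 summed shares and 5 ratios, for each diet), 5 held a library that lay far from the other 3, by Dixon's gap test. Chance gives about 5% of groups. AL replicate 3 was low in Obp1b, at 40460 CPM, and the same library had the lowest AL log2 ratio of Obp1b to Obp1a, -1.99, and the highest of Gm5938 to Obp1b, 0.088. These 3 values share the Obp1b count. CR replicate 4 was high in Obp1b, at 38720 CPM, and in the summed share of Obp1a, Obp1b and Gm5938, at 21.11% of counts. The cause was not tested.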

How the results depend on the processing

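Under all 17 alternatives the log2 fold changes of the 6 tested members moved by less than the pooled SD within groups, which includes the spread that CR replicate 4 itself adds, and that of Mup4, near 0, changed sign. Leaving out CR replicate 4 moved those of Obp1a, Obp1b, Gm5938, Lcn11 and Mup4 by more than the AL SD alone. The members were chosen by this comparison, so their calls are counts only and no sign of stability. Mup5 was called higher in each, and 0 members were called lower except 1 (Obp1b) with the replicate block and 2 (Obp1b and Gm5938) with DESeq2 or with both replicate 4 libraries left out, a choice made after seeing the data. Leaving out 1 library gave 0 to 2, with 2 only without CR replicate 4. Over all genes, 271 higher and 165 lower were called with no filter, 388 and 313 by DESeq2, 413 and 243 without both replicate 4 libraries, and 51 lower with total counts only. Leaving out 1 library gave 35 to 453 higher and 25 to 247 lower, the most without CR replicate 4. Of the other lipocalins 1 (Gm14743) was called lower with no filter, the replicate block, DESeq2 or both replicate 4 libraries left out, and 0 to 1 without 1 library. Receptors gave 0 to 1 called lower without 1 library. Of the hormone genes 1 (Ghr) was called higher by DESeq2 and without both replicate 4 libraries, and without 1 library 0 to 1 in each direction. The share of members in AL was 36.21% of the counts of other genes. With the replicate block, 388 genes were higher and 312 lower. Correlations of same-numbered libraries were 0.13, 0.07, 0.22 and 0.43, so 1 was not above 0.1, and no source ties the numbers to a shared animal, cage or day. On these grounds the numbers were not taken as pairs, although 3 of 4 AL libraries correlated best with their own number, a hint of pairing from the data only. The causes were not tested.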
